A study of Mus musculus with 23 samples.

Results

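The interferon-response genes described here are 9 genes: the transcription factor genes *Irf1* and *Irf7*, the antiviral effector genes *Isg15*, *Ifit1*, *Ifit3* and *Oas1a*, the pro-apoptotic gene *Xaf1*, and the guanylate-binding protein genes *Gbp2* and *Gbp6*. They were measured in fetal mouse thymic epithelial cells (TECs), the stromal cells that support T-cell development, among 50123 genes in all. The genes were chosen from earlier results of the same libraries, because *Xaf1* was higher in E12.5 *Rbpj*-deleted TECs than in controls and *Gbp6* was absent from TECs with forced Notch signaling, so those 2 differences are given as descriptions, without a test.

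RNA was measured by Smart-seq2 in 23 libraries of 100 sorted TECs each, from C57BL/6 embryos. E12.5 PLET1+ TECs, E14.5 PLET1+ TECs and E14.5 PLET1- TECs were each sorted from controls (n = 3) and from *Rbpj* cKO embryos (n = 3), in which *Foxn1Cre* deletes both floxed alleles of *Rbpj* (*Foxn1Cre Rbpj FL/FL*), the gene of the DNA-binding partner of Notch. Controls are wild type by label and littermates of the cKO by the methods, which name a cross in which every embryo inherits a floxed *Rbpj* allele. The last group is E14.5 PLET1+ TECs with *Foxn1Cre* and a Rosa26FL-STOP-FL-NICD-IRES-EGFP allele, which drives the Notch intracellular domain from the Rosa26 locus (NICD, n = 5). In both models Cre is driven by *Foxn1* and so acts in TECs. The paper places the deletion of *Rbpj* only shortly before E12.5. It states that function is lost after that, at a pace set by protein turnover and cell division. The E12.5 cKO cells may therefore not lack the function fully. The E12.5 and E14.5 *Rbpj* libraries each came from 2 litters collected on different days by the methods. By label they fall into 2 batches at each stage, none of which holds both stages, so stage and batch cannot be told apart, and the labels do not say what a batch was. The NICD embryos were 1 litter, collected in another laboratory, and carry a batch label of their own, so genotype and batch cannot be told apart there either. Fetal tissue was not depleted of T cells before sorting.

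Interferons bind cell-surface receptors that activate JAK kinases and STAT transcription factors. Type I interferons, such as interferon-beta, act through a complex with STAT2 and IRF9 on a DNA element called ISRE, whereas interferon-gamma acts through STAT dimers on an element called GAS. The genes switched on include sensors of foreign nucleic acid, proteins that block viral replication, GTPases that attack intracellular microbes, chemokines and genes of antigen presentation. Many of these genes are also transcribed at a low level in unstimulated cells.

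Promoter sequences are shown because the 9 genes are grouped by a response and not by a single gene family. The DNA elements of that response were looked for upstream of the genes. Sequences were taken from RefSeq (GRCm38.p6), which matched 8 of the 9 genes, with *Gbp6* unmatched and *Irf1* having 2 entries. In the 250 bases before the start of transcription, the ISRE letters, GAAA followed by any 2 bases and GAAA again, read on both strands, were found for 5 of the 8 matched genes (*Gbp2*, *Isg15*, *Ifit1*, *Ifit3* and *Oas1a*), compared with 3.46% of all 27025 genes with a promoter entry. The GAS letters TTCNNNGAA, which read the same on both strands, were found for *Irf1* and *Oas1a*, compared with 8.13% of all genes. For *Irf1* the match lay in the entry printed below, and the other of its 2 entries held neither element. Neither was found in this window for *Xaf1* or *Irf7*. The ISRE letters were present for 38% of the 100 genes with an entry in the wider list of interferon pathway genes described below. The promoters below belong to the genes that the results turn on. Each is written 5′ to 3′ on the strand of its gene, with the GAS match in capitals for *Irf1*, the ISRE matches in capitals for *Isg15* (3 that overlap) and *Gbp2* (1, on the opposite strand), and no capitals for *Xaf1*.
Irf1 promoter, chr11:53769764-53770013, plus strand: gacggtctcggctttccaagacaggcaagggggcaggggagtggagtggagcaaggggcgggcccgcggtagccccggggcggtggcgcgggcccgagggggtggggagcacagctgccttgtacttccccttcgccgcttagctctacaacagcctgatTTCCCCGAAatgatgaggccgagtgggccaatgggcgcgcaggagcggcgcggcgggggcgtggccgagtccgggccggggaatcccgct
Isg15 promoter, chr4:156200819-156201068, minus strand: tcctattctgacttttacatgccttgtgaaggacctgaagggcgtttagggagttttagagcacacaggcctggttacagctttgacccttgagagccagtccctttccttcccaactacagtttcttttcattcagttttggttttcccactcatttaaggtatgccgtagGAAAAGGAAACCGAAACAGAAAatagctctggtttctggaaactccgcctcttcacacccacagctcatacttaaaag
Gbp2 promoter, chr3:142620413-142620662, plus strand: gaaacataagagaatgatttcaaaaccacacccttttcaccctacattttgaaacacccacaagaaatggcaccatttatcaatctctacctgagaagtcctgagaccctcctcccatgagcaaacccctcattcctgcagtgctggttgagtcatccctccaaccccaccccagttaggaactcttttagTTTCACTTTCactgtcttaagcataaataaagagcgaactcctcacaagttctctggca
Xaf1 promoter, chr11:72301379-72301628, plus strand: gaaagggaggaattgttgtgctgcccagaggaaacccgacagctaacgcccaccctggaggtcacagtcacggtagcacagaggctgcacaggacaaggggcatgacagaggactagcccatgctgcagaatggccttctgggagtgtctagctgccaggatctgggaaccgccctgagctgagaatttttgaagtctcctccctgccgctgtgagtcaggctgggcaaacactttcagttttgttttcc

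Each library held between 20053241 and 92699969 assigned reads (median 39756938), in which 16229 to 20350 genes were detected. Levels are given as CPM, the read count normalised to the depth of each library with TMM scaling, and a level of 0 is compatible with up to 3 reads, which corresponds to 0.0378 to 0.17 CPM depending on the library. These limits cover counting error only, since reads were not marked by molecule. *Rbpj* itself was lower in each cKO group than in its control group, with means of 9.26 ± 7.05 CPM against 24.4 ± 12 at E12.5, 5.81 ± 5.27 against 19.7 ± 1.10 in E14.5 PLET1+ TECs and 5.38 ± 2.56 against 15.6 ± 9.18 in E14.5 PLET1- TECs (SD, n = 3 each). At E12.5 the groups overlapped, because 1 cKO library (16.2 CPM) was above the lowest control (15.1 CPM). All 12 TEC markers were above 3 counts in every library. Between the stages in PLET1+ controls, 1 of them and 1 of 9 medullary markers (8 tested) were called higher at E14.5 (edgeR adjusted p at most 0.05). The TEC markers summed to between 4769 and 5926 CPM in E12.5 and between 8402 and 9339 CPM in E14.5 PLET1+ controls. Medullary markers summed to between 25.8 and 114 CPM and between 132 and 247 CPM in the same groups. The 20 haematopoietic markers summed to between 15.9 and 68.5 CPM, with ranges that overlapped between all groups. The number of them above 3 counts per library was 3 to 5 in E12.5 controls and 2 to 3 in E12.5 cKO. It was 3 to 7 in E14.5 PLET1+ controls, 5 to 7 in PLET1+ cKO, 6 to 8 in PLET1- controls and 6 in PLET1- cKO. In NICD libraries it was 2 to 9. More of these markers were thus detected in most E14.5 libraries of the *Rbpj* cross than at E12.5. Among the defining haematopoietic markers, *Ptprc* was at 0 in all 6 E14.5 control libraries, *Cd3e* never exceeded 4 counts, and *Csf1r* never exceeded 3 counts outside the NICD libraries, where 1 library had 50. *Ptprc* reached 439 counts in 1 E14.5 PLET1+ cKO library and 112 in 1 NICD library. Mesenchyme markers (8 genes) summed to at most 67.3 CPM in the PLET1+ groups of the *Rbpj* crosses, but reached 1161 CPM among E14.5 PLET1- TECs and 426 CPM among NICD TECs. Parathyroid markers (3 genes) summed to between 661 and 8800 CPM at E12.5, to at most 389 CPM in E14.5 PLET1+ TECs and to at most 1448 CPM in E14.5 PLET1- TECs. The part of these other cells in the levels below was not tested, and in pools of 100 cells fewer cells expressing a gene cannot be told apart from less RNA per cell.

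**Figure D1:**
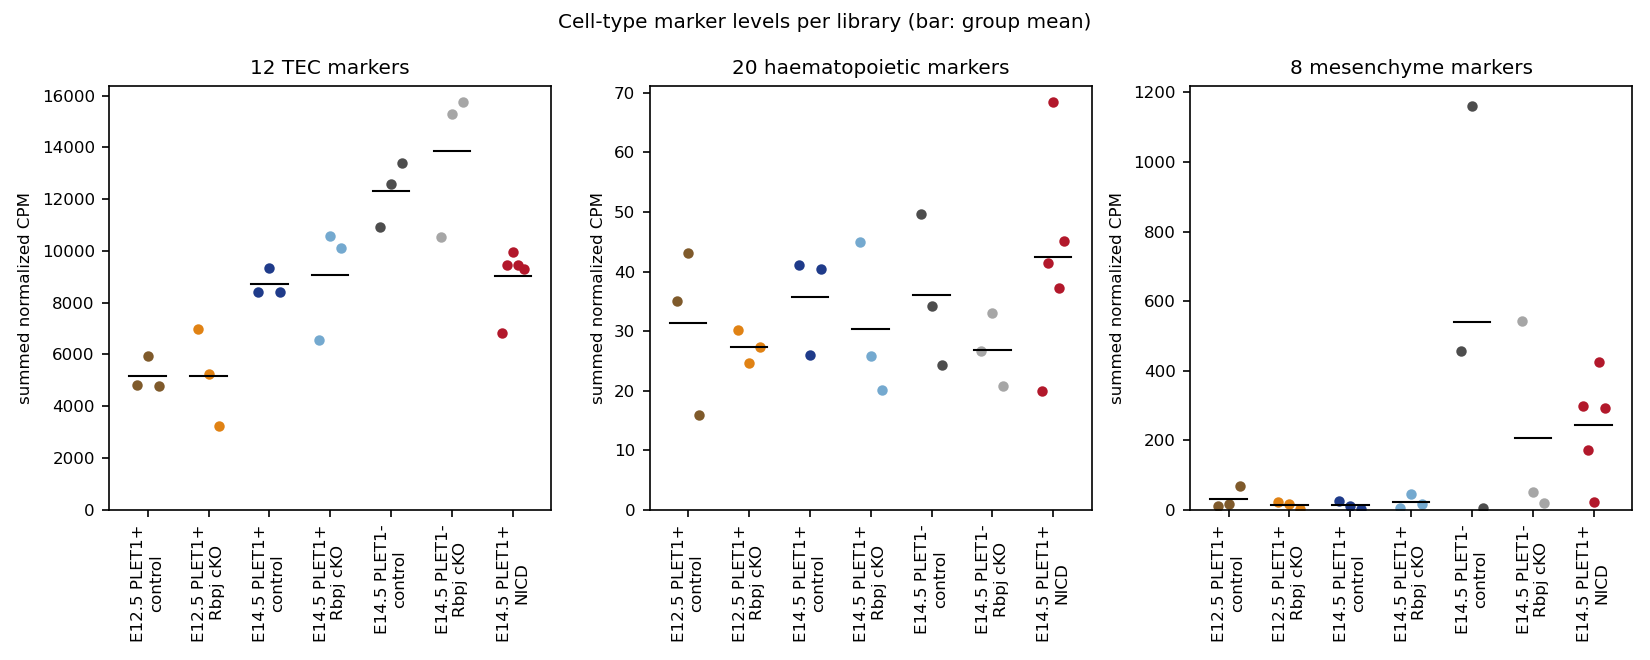
Summed level of the 12 TEC, 20 haematopoietic and 8 mesenchyme markers (normalized CPM, linear axis) in each of the 23 libraries, as points by group with the group mean as a bar. Haematopoietic markers stay between 15.9 and 68.5 CPM with overlapping groups, while mesenchyme markers are high in some PLET1- and NICD libraries.

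The transcription factor *Irf1* was the most abundant of the 9 genes per length of transcript and the one detected in all 23 libraries. *Irf1* (ENSMUSG00000018899.16, GRCm38 chr11:53770014-53778374, plus strand) had 51.7, 47.6 and 19.7 CPM in the 3 E12.5 control libraries. It had 287, 426 and 560.2 CPM in the E14.5 PLET1+ controls and 305, 355 and 1062 CPM in the E14.5 PLET1- controls. Every E14.5 control library was thus above every E12.5 control library. The cKO libraries ran from 7.18 to 165 CPM at E12.5, from 168 to 697 CPM in E14.5 PLET1+ TECs and from 269.6 to 916 CPM in E14.5 PLET1- TECs. The 5 NICD libraries had 134, 122, 162, 46.2 and 105 CPM, all below the lowest E14.5 PLET1+ control. Only the NICD library at 46.2 CPM lay within the range of the E12.5 controls. The others were above every E12.5 library except 1 cKO library (165 CPM). Over the 12 E14.5 libraries of the *Rbpj* cross, *Irf1* averaged 136 CPM per kilobase of exon, compared with 41.8 for *Gbp2*, 9.10 for *Ifit1*, 8.50 for *Xaf1*, 7.79 for *Isg15* and between 1.09 and 1.54 for *Gbp6*, *Ifit3*, *Oas1a* and *Irf7*.

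*Irf7*, the factor that amplifies the type I interferon response, was at the other end of the range. It had no read in any of the 6 E12.5 libraries. At E14.5 it was above 3 counts in 9 of 12 libraries of the *Rbpj* cross, at most 11.1 CPM, and in 1 of 5 NICD libraries (6.49 CPM). Within the PLET1+ controls alone it ran from 0.0364 to 11.1 CPM, so the spread between replicates covered the range of all E14.5 groups.

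Among the antiviral effectors, *Isg15*, a ubiquitin-like protein that is conjugated to other proteins, separated the stages without overlap. It had 0, 1 and 3 counts in the E12.5 controls and none in the E12.5 cKO. At E14.5 the PLET1+ controls had 2.84, 6.61 and 2.83 CPM and the PLET1- controls 2.89, 3.47 and 5.74 CPM. The E14.5 cKO libraries had 10.6, 8.16 and 5.41 CPM when sorted as PLET1+ and 3.39, 11.3 and 7.43 CPM when sorted as PLET1-. All 12 of these E14.5 libraries were therefore above all 6 E12.5 libraries. The NICD libraries covered 0.178 to 19.9 CPM, a wider range than all the other E14.5 groups together.

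*Ifit1* and *Ifit3* encode tetratricopeptide proteins that bind foreign RNA or assist in that, and their genes lie close together on chromosome 19. *Ifit1* was present at both stages, with 0.541, 35.2 and 14.3 CPM in E12.5 controls and 11.6, 17.9 and 21.7 CPM in E14.5 PLET1+ controls. In the E14.5 PLET1- controls 1 library had 93.3 CPM and the others 6.91 and 4.43, which was the widest spread of *Ifit1* within a group. NICD libraries had 2.74, 5.97, 0.345, 0 and 4.91 CPM, each below the lowest E14.5 PLET1+ control. *Ifit3* was at 0 in every E12.5 control, at 2 counts in 1 E12.5 cKO library, and above 3 counts in 8 of the 12 E14.5 libraries of the *Rbpj* cross, none above 8.43 CPM. A single NICD library had 47.0 CPM (3076 counts) of *Ifit3* while the other 4 had 1 to 3 counts each. *Oas1a*, which makes the messenger that activates RNase L, had no such separation by stage. It had 6.11 and 5.87 CPM in 2 of the 3 E12.5 controls, 0 in all E12.5 cKO libraries, and at most 9.32 CPM at E14.5, where it was above 3 counts in 7 of 12 libraries of the *Rbpj* cross and 1 of 5 NICD libraries.

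*Xaf1* (ENSMUSG00000040483.15, GRCm38 chr11:72301629-72313733, plus strand), an antagonist of the apoptosis inhibitor XIAP, had 2, 0 and 4 counts in the E12.5 controls. The E12.5 cKO libraries had 69, 80 and 88 counts, or 2.35, 3.66 and 4.98 CPM. These are the values that chose *Xaf1*, and they correspond to a ratio of depth-scaled counts of 79.7, with a 95% interval of 36.1 to 219 that covers counting error alone. At E14.5 the levels of both genotypes were higher still. PLET1+ controls had 42.3, 18.8 and 7.41 CPM and PLET1+ cKO had 72.8, 34.8 and 19.6 CPM, and the highest E12.5 cKO library was below the lowest of these. NICD libraries ran from 12 to 50.7 CPM, within the range of the other E14.5 groups. In the order of group means the 5 E14.5 groups overlapped their neighbours, and there was a gap without overlap below them and again between E12.5 cKO and E12.5 control.

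The guanylate-binding proteins are interferon-induced GTPases that act on pathogen membranes. *Gbp2* had 0.125, 15.9 and 7.78 CPM in E12.5 controls and 67.7, 75.9 and 61.7 CPM in E14.5 PLET1+ controls, and its cKO libraries at E14.5 ran from 86.1 to 172 CPM in both sorted populations. In NICD TECs it had 12.9, 45.2, 13.3, 63.2 and 17.2 CPM, which overlapped the PLET1+ controls through 1 library. *Gbp6* (ENSMUSG00000104713.4, GRCm38 chr5:105270702-105293698, minus strand) had no read in any of the 6 E12.5 libraries and none in any of the 5 NICD libraries. At E14.5 the PLET1+ controls had 4.0, 17.1 and 3.61 CPM and the PLET1+ cKO libraries 0, 7.89 and 14.7 CPM, whereas among PLET1- libraries the controls had 4.34, 2.76 and 12.2 CPM and the cKO 23, 11.4 and 8.61 CPM. One pool of E14.5 TECs without the NICD allele, in the PLET1+ cKO group, thus also had no *Gbp6* read.

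The reading of *Gbp6*, *Oas1a* and *Ifit3* is limited by near copies, because the counting dropped reads that align to more than 1 place or overlap more than 1 gene. Of the 75-base words of its transcripts (75 bases being the read length), 67.3% were shared with other genes for *Gbp6*, 47.6% for *Oas1a* (*Oas1g*) and 41.1% for *Ifit3* (*Ifit3b*), compared with 5.19% for *Ifit1* and under 1% for the other 5. The predicted gene *Gm43302* lies on the same strand and covers 29.0% of the exon bases of *Gbp6*, and was listed at 0 in all libraries. On the opposite strand *Gm17334* covered 3.4% of the exon bases of *Irf1*, and since counting did not use strand, reads of either gene there were dropped. The near copies were themselves low, with at most 5.83 CPM of *Gbp10*, 8.09 CPM of *Ifit3b* and 2.90 CPM of *Oas1g* in any library. They lost shared reads in the same way, so these levels do not show how many reads were dropped. *Gbp2b*, the near copy of *Gbp2*, was at 0 to 0.0883 CPM in 21 libraries and at 9.17 and 17.8 CPM in 2 NICD libraries.

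**Figure D2:**
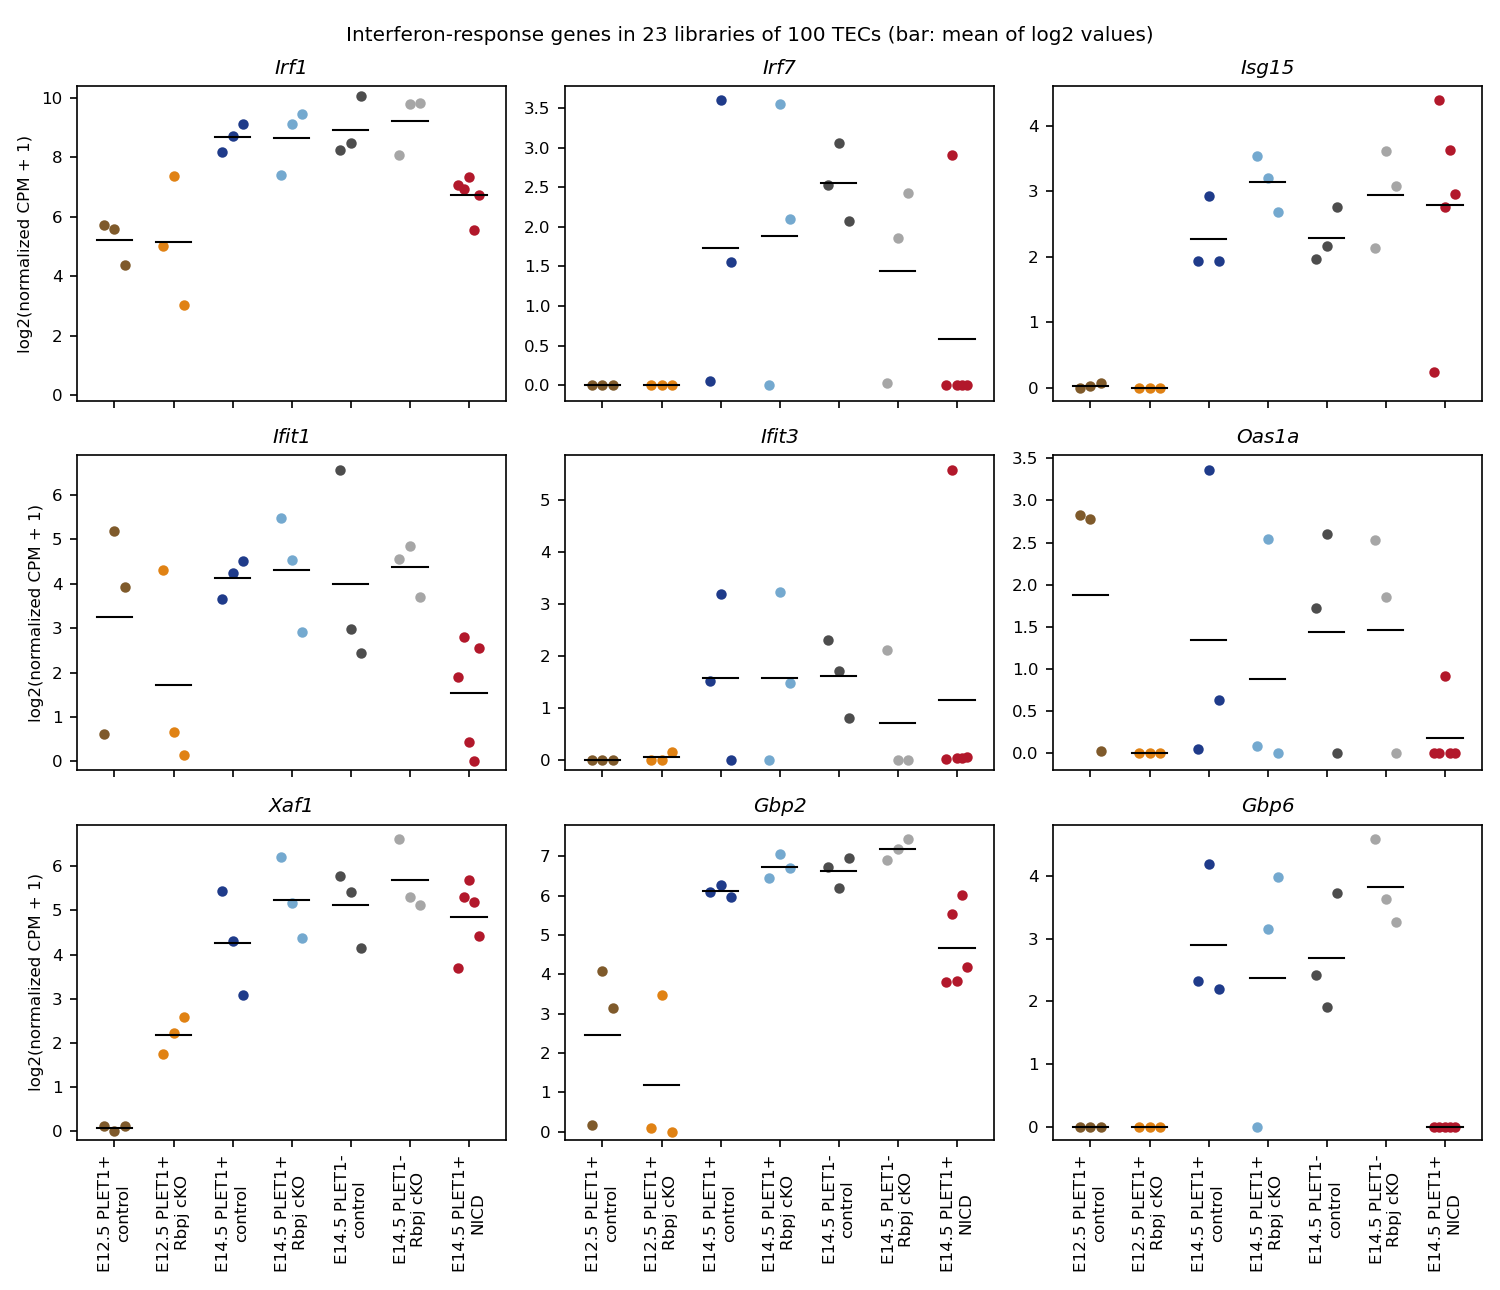
Level of each of the 9 genes, as log2(normalized CPM + 1), in the 23 libraries, as points by group with the mean of the log2 values as a bar. *Irf1*, *Isg15*, *Xaf1* and *Gbp2* are higher in each E14.5 group of the *Rbpj* cross than in E12.5 controls in every library, and *Gbp6* is at 0 in the 6 E12.5 and 5 NICD libraries.

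The first question was whether the genes differ between E12.5 and E14.5 PLET1+ TECs of controls, the period in which TECs mature. Differences were tested in one edgeR quasi-likelihood fit of all 23 libraries, with Benjamini-Hochberg adjustment over the 19140 genes that passed a filter on low counts, and a gene was called when its adjusted p did not exceed 0.05. *Irf1* rose by 3.43 on the log2 scale (SE 0.69, edgeR adjusted p = 0.0201), from 39.7 ± 17.4 to 424 ± 136 CPM (SD, n = 3 each). *Isg15* also rose, and because its E12.5 controls held 4 counts in all, the size is given as a ratio of depth-scaled counts of 156, with a 95% counting interval of 60.8 to 576 (edgeR adjusted p = 0.0232). Since *Isg15* passed the filter only through the later groups, this p is not read as support. *Gbp2* was at 7.92 ± 7.86 against 68.4 ± 7.17 CPM and did not pass the test (log2 difference 2.89, SE 1.47, edgeR adjusted p = 0.416). *Ifit1* was at 16.7 ± 17.4 against 17.0 ± 5.08 CPM (log2 difference 0.06, SE 1.88), and *Oas1a* had a log2 difference of 2.55 with an SE of 2.74. *Irf7* and *Ifit3* were at 0 in all E12.5 controls and did not pass the test (edgeR adjusted p = 0.336 and 0.384). Their E14.5 levels were 0.0364, 11.1 and 1.95 CPM for *Irf7* and 1.86, 8.17 and 0 CPM for *Ifit3*, so that 1 library, E14.5 PLET1+ control 2, held most of each.

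With *Xaf1*, which is given no p because it was chosen on its E12.5 values, 3 of the 9 genes were called higher at E14.5 and none lower, where 0.831% of all genes tested were called higher and 0.136% lower. The libraries of the 2 stages did not overlap for 6 of the 9, all higher at E14.5, compared with 11.5% of all genes tested (and 8.82% lower). One of the 6 is *Irf7*, whose lowest E14.5 control held a single count, within the 3 counts that a 0 allows. For 4 of the 9 genes (*Gbp6*, *Irf7*, *Isg15* and *Ifit3*) no E12.5 control library was above 3 counts, so they passed the filter through the later groups. Neither these counts nor the *Isg15* call can therefore be read as support. The *Irf1* call was lost in 8 of 16 alternatives and the *Isg15* call in 6 of 16. For *Irf1* these include scaling to housekeeping genes (edgeR adjusted p = 0.109) and a fit without batch terms (edgeR adjusted p = 0.0826). In a fit of the 6 libraries of these 2 groups alone, *Irf1* differed by 3.52 on the log2 scale (edgeR adjusted p = 0.0856), *Isg15* had an edgeR adjusted p of 0.174, and 1 gene was called in all. In the first batch of each stage alone (n = 2 each) the edgeR adjusted p was 0.420 for *Irf1* and 0.192 for *Isg15*; the other batches hold 1 library of each group and give no value of their own. Each call was also lost when certain single libraries were left out, with edgeR adjusted p between 0.0705 and 0.121 for *Irf1* (E12.5 control 1 or 2, or E14.5 PLET1+ control 2) and between 0.0757 and 1 for *Isg15* (any E12.5 control, or E14.5 PLET1+ control 2).

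The wider interferon pathway was described with a list of 131 genes, made up of 21 ligand, 6 receptor, 12 kinase and transcription factor, 13 sensor, 7 inhibitor and 72 effector genes other than the 9. In E12.5 controls 50 to 60 of the 131 were above 3 counts per library, compared with 80 to 98 in E14.5 PLET1+ controls. The share of all 19140 tested genes above 3 counts overlapped between these groups, with 70.4% to 77.1% at E12.5 and 72.8% to 89.1% at E14.5. NICD libraries had 71 to 80 pathway genes above 3 counts, fewer than or equal to the lowest E14.5 PLET1+ control, with 68.9% to 77.4% of all tested genes above 3 counts. E12.5 cKO libraries had 42 to 66 and the other E14.5 groups 79 to 102. Pathway detection thus split by stage in the *Rbpj* crosses, with no library of one stage within the range of the other, and the ranges of cKO and control overlapped at each stage.

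**Figure D3:**
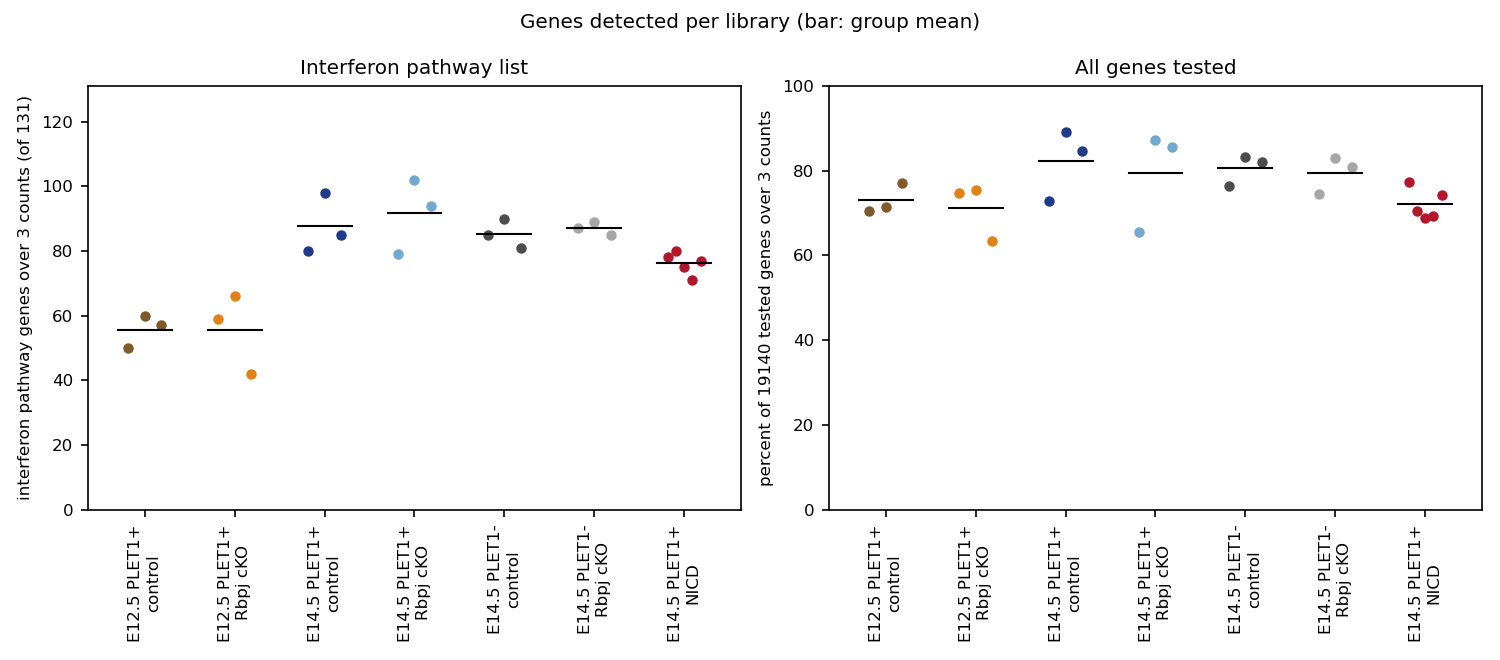
Left, number of the 131 interferon pathway genes with over 3 counts in each library; right, percent of the 19140 tested genes with over 3 counts, as points by group with the group mean as a bar. The 6 E12.5 libraries have 42 to 66 pathway genes and the 12 E14.5 libraries of the *Rbpj* cross 79 to 102, while the shares of all tested genes overlap between stages.

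Of the 131 pathway genes, 97 were tested. In controls 0.831% of all genes tested were called higher at E14.5 than at E12.5 and 0.136% lower. Of the 97, 12 were called higher and 0 lower (11 and 0 with scaling to housekeeping genes). In the fit of the 2 groups alone the number was 0, in the first batch alone 4, and in the other settings tried between 7 and 35, none of them lower. The libraries of the stages did not overlap for 44 of the 97, all higher at E14.5, compared with 11.5% of all genes tested (and 8.82% lower). The 97 had a median log2 difference of 3.52, or 2.69 with genes at 0 set to their lower bound, compared with 0.19 and 0.15 over all genes. For 24 of the 97 (24.7%) every E12.5 control library was at or under 3 counts, against 14.2% of all genes tested, so these counts and the median were partly fixed by the filter. Among the 159 genes called higher and the 26 called lower, 85.9% were higher, and with scaling to housekeeping genes this share was 74%.

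Ligand genes were nearly silent. Of 21, only *Ifng*, *Ifnk* and *Ifnz* exceeded 3 counts in any library, in 12 gene and library pairs spread over 11 libraries. The highest value was 94 counts (*Ifnz*, NICD library 2). Receptor genes, by contrast, were expressed at both stages, and those of interferon-gamma rose. *Ifngr1* was at 10.6 ± 10.8 CPM in E12.5 and 49.3 ± 8.17 CPM in E14.5 PLET1+ controls (SD, n = 3 each), a log2 difference of 2.77 (SE 0.42, edgeR adjusted p = 0.00214). *Ifngr2* was at 11 ± 7.84 and 64.0 ± 20.5 CPM, a log2 difference of 2.69 (SE 0.51, edgeR adjusted p = 0.0122). The other 4 receptor genes did not pass the test. The type I receptor genes had log2 differences of 1.02 (SE 0.66) for *Ifnar1* and 0.26 (SE 0.68) for *Ifnar2*, those of interferon-lambda 0.28 (SE 1.84) for *Ifnlr1* and 1.57 (SE 0.55) for *Il10rb*, whose libraries did not overlap.

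None of the 12 kinase and transcription factor genes was called between the stages. *Irf9* and *Jak1* had no overlap between the stages, with log2 differences of 1.31 (SE 0.98) and 0.92 (SE 0.26), while *Jak2* (−0.16, SE 0.44), *Tyk2* (0.37, SE 1.26) and *Stat2* (1.93, SE 1.08) overlapped. Of the 7 inhibitors of the pathway none was called. *Socs3* was at 5.05 ± 6.34 and 78.6 ± 29.8 CPM and *Socs1* at 3.41 ± 5.04 and 23.4 ± 8.0 CPM (edgeR adjusted p = 0.104 and 0.374), both without overlap, and *Usp18*, which acts on the type I receptor and removes ISG15 from proteins, had 1 count in all E12.5 controls and 3.53, 8.65 and 0.926 CPM at E14.5.

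Sensors and effectors held the other 10 calls. *Tmem173*, which encodes the DNA-sensing adaptor STING, was at 0 in all E12.5 controls and at 41.7, 40.7 and 30.9 CPM in E14.5 PLET1+ controls, at least 493-fold higher (edgeR adjusted p = 0.000887). The chemokine genes *Cxcl9* and *Cxcl11* were likewise at 0 in all E12.5 controls, and were at least 608-fold and 310.3-fold higher at E14.5 (edgeR adjusted p = 0.00274 and 0.00828). *Tmem173*, *Cxcl9* and *Cxcl11* passed the filter through the later groups, so their p-values are not read as support. Their fold bounds cover counting error only and not a transcript missed in a pool of cells. *Ifitm3*, an inhibitor of viral entry, rose from 469.7 ± 58.1 to 2284 ± 531 CPM (log2 difference 2.22, SE 0.36, edgeR adjusted p = 0.00314) and *Ifi35* from 11.5 ± 6.57 to 48.4 ± 8.92 CPM (log2 difference 2.11, SE 0.38, edgeR adjusted p = 0.00915). The others called, which are named after their values were seen, were the chemokine gene *Cxcl10*, the peptide transporter gene *Tap1* and the immunity-related GTPase genes *Irgm1*, *Igtp* and *Iigp1*, of which *Iigp1* went from 65.1 ± 8.49 to 797 ± 201 CPM.

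**Figure D4:**
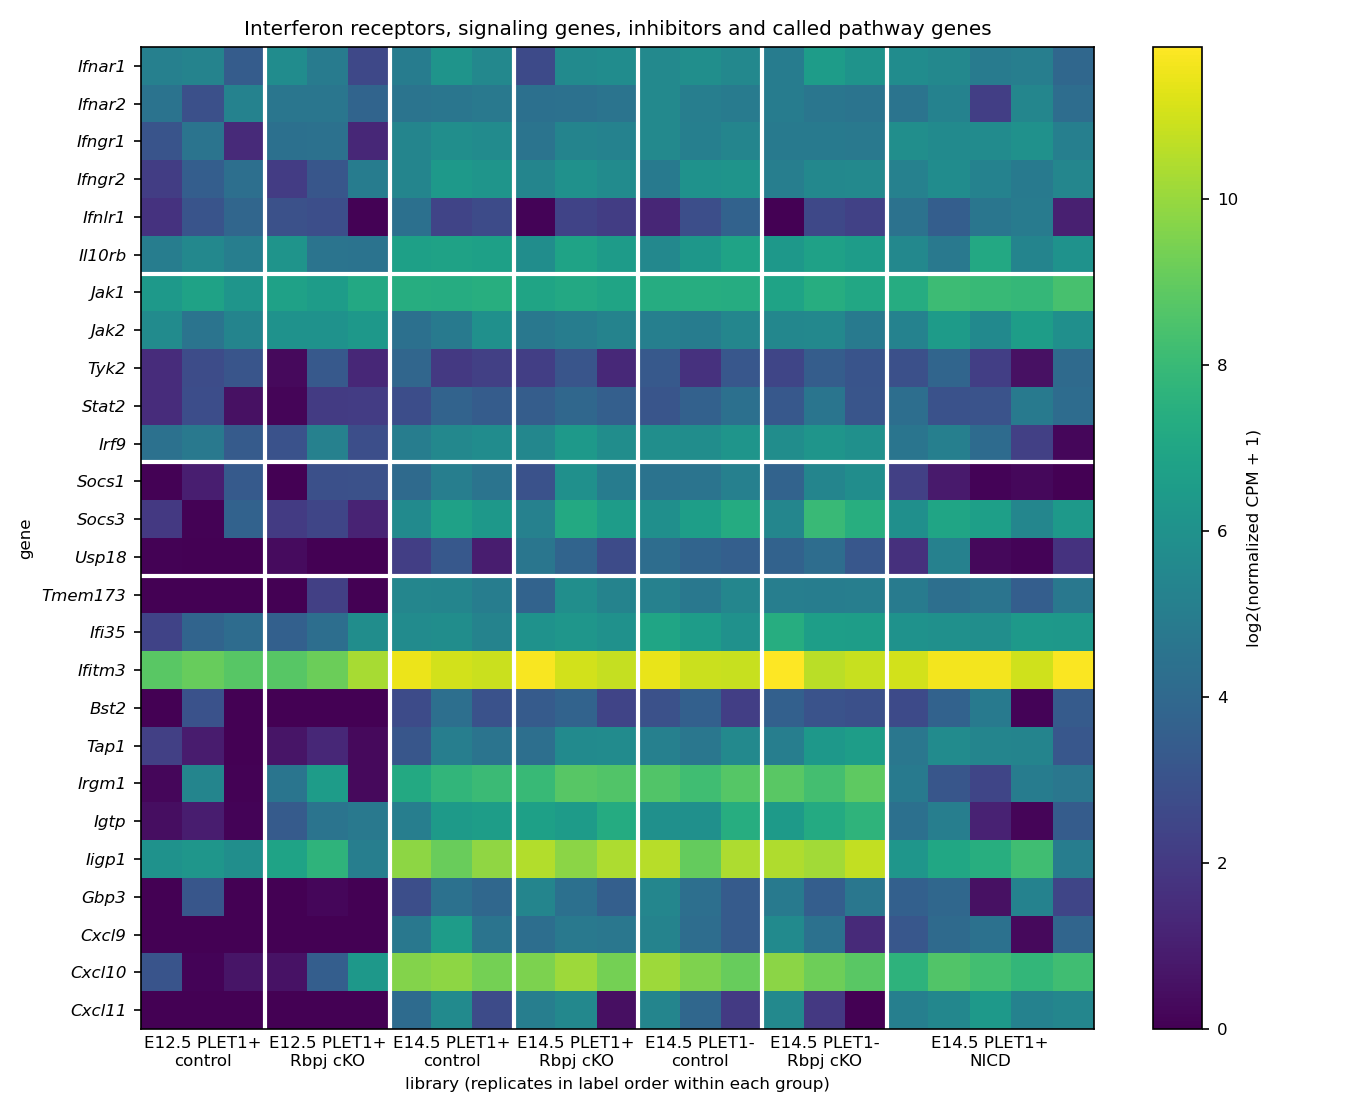
Level, as log2(normalized CPM + 1), of the 6 receptor genes, 5 kinase and factor genes, 3 inhibitor genes and the called pathway genes (rows) in the 23 libraries (columns, grouped; white lines separate groups and roles). The called genes, from *Tmem173* to *Cxcl11*, have lower means in E12.5 than in E14.5 PLET1+ TECs in control and in cKO, and *Iigp1* and *Irgm1* are lower in NICD TECs than in E14.5 PLET1+ controls.

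The same comparison of stages was made in *Rbpj* cKO TECs, which share no library with the control comparison but were fitted in the same model. Here 0.554% of all genes were called higher at E14.5 and 0.23% lower, and 3 of the 9 genes (*Irf1*, *Isg15* and *Xaf1*) and 11 of the 131 pathway genes were called, all higher. The number of pathway genes called was 6 with scaling to housekeeping genes, 3 without batch terms, 3 with a replicate block, 3 to 7 with single libraries left out (any of the 6 lowered it), 0 in the first batch alone, 8 with limma-voom, 29 without a filter and 34 with DESeq2. Libraries did not overlap for 4 of the 9, all higher, against 7.99% of all genes (6.89% lower). For 5 of the 9 (*Gbp6*, *Irf7*, *Isg15*, *Ifit3* and *Oas1a*) no E12.5 cKO library was above 3 counts, and *Xaf1* was chosen on its E12.5 values, so neither count can be read as support. The same holds for the *Isg15* call given next. *Irf1* rose by 3.32 on the log2 scale (SE 0.69, edgeR adjusted p = 0.0302). *Isg15* was at 0 in the E12.5 cKO and at least 59.1-fold higher at E14.5 (edgeR adjusted p = 0.00791), a call lost in 3 of 16 alternatives with edgeR adjusted p up to 0.292. *Gbp2* was at 3.41 ± 5.84 against 107 ± 23.7 CPM and did not pass (log2 difference 5.48, SE 1.56, edgeR adjusted p = 0.147). Among pathway genes, *Cxcl9* and *Cxcl11* were at 0 in all E12.5 cKO libraries too and at least 169-fold and 190.2-fold higher at E14.5 (edgeR adjusted p = 0.00689 and 0.0267). The limits given for both genes in controls hold here too. *Iigp1* was at 119 ± 88.1 against 1214 ± 294 CPM and *Tap1* at 0.771 ± 0.663 against 40.3 ± 18.2 CPM (edgeR adjusted p = 0.0107 and 0.0186). *Ifitm3* rose by 1.75 on the log2 scale (SE 0.35, edgeR adjusted p = 0.0244), *Ifngr1* by 1.94 (SE 0.41) and *Ifngr2* by 2.36 (SE 0.50), the last pair with an edgeR adjusted p of 0.0353 each. *Tmem173* was at 0, 3.75 and 0 CPM in the E12.5 cKO and at 12.7, 56.8 and 38.1 CPM at E14.5 (edgeR adjusted p = 0.0268). Of the 12 pathway genes called in controls, 9 were also called in the cKO, 75% of the first list and 81.8% of the second, compared with 86 shared genes over all genes, 46.5% and 57.3% of the 2 lists. In this comparison 70.7% of called genes were higher, and 93.7% with scaling to housekeeping genes. The *Irf1* call was lost in 10 of 16 alternatives, with a log2 difference of 2.51 (edgeR adjusted p = 0.272) without E12.5 cKO library 3 and of 1.89 (edgeR adjusted p = 0.755) in the first batch alone. In a fit of the 2 cKO groups alone, 2 genes were called in all and 0 pathway genes.

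The second question was the effect of *Rbpj* loss within E14.5 TECs. In neither sorted population was any gene called, among all genes or among the 9, with 395 genes in PLET1+ and 447 genes in PLET1- TECs at an unadjusted p under 0.05 and none of the 9 among them. DESeq2 (adjusted p at most 0.05) called 100 genes in PLET1+ and 160 in PLET1- TECs. *Gbp2* was the one gene of the 9 whose PLET1+ libraries did not overlap, with 86.1, 133 and 103 CPM in cKO and 67.7, 75.9 and 61.7 CPM in controls (log2 difference 0.65, SE 1.25, edgeR adjusted p = 1), where 3.07% of all genes tested did not overlap in that direction and 4.57% in the other. In PLET1- TECs none of the 9 was free of overlap, against 2.62% of all genes higher and 3.2% lower in cKO. There its cKO libraries (119.8, 144 and 172 CPM) overlapped the controls (105, 72.3 and 122 CPM) in 1 value. *Xaf1* had a log2 difference of 0.99 (SE 0.65) in PLET1+ and 0.69 (SE 0.65) in PLET1- TECs, with overlapping libraries in both. *Isg15* had 0.98 (SE 1.13) and 0.85 (SE 1.13), and *Irf1* had 0.12 (SE 0.62) and 0.44 (SE 0.62). The edgeR adjusted p of all 9 genes was 1 in both populations. With the replicate number as a block no gene was called either. No label pairs a cKO with a control library, and deviations from the group means were also shared across numbers. In PLET1+ TECs their r was 0.34 between cKO 3 and control 2, against 0.26 between the 2 libraries numbered 3. Between same-numbered libraries, *Isg15* and *Gbp2* were higher in cKO in 3 of 3 cases in both populations, and *Xaf1* in 3 of 3 in PLET1+ and 2 of 3 in PLET1- TECs. The share of all genes that did so was not taken, so these counts are not read as an effect. With these standard errors, the absence of calls does not show that the genotypes were alike. Of the 97 tested pathway genes, 60 were fitted higher and 37 lower in PLET1+ cKO, with a median log2 difference of 0.20 against −0.02 over all genes, and in PLET1- cKO 61 were higher and 36 lower, with a median of 0.16 against 0.02.

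Between PLET1- and PLET1+ TECs, no gene was called in controls or in cKO, with 550 and 442 genes at an unadjusted p under 0.05 and none of the 9 among them. DESeq2 called 153 and 152 genes. In controls the log2 differences (PLET1- minus PLET1+) were 0.80 (SE 0.65) for *Xaf1*, 0.53 (SE 1.25) for *Gbp2*, 0.26 (SE 0.62) for *Irf1* and 0.01 (SE 1.13) for *Isg15*, and in cKO they were 0.51 (SE 0.65), 0.43 (SE 1.25), 0.58 (SE 0.62) and −0.11 (SE 1.12). The libraries of the sorted populations overlapped for all 9 genes in both genotypes, where 4.66% of all genes were higher and 5.03% lower in PLET1- without overlap in controls, and 3.49% and 3.09% in cKO. Of the 97 tested pathway genes, 12 were higher and 1 lower in PLET1- without overlap in controls, and 6 and 3 in cKO. Same-numbered libraries deviated together from their group means, with r of 0.36 to 0.49 in controls and 0.40 to 0.53 in cKO. Other-numbered libraries reached at most 0.17 and 0.38. No label says whether same-numbered libraries share embryos. With the replicate number as a block no gene was called either. *Xaf1* alone of the 9 was higher in PLET1- in every same-numbered pair of both genotypes. The share of all genes doing so was not taken, so no effect is read. Mesenchyme markers stood up to 1161 CPM in the PLET1- controls, and their part in these values was not tested.

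At E12.5, the contrast that chose *Xaf1*, 5 genes were called over all genes, 0.0261%, all higher in cKO and *Xaf1* among them, and from this count nothing is read. The libraries of the genotypes did not overlap for *Xaf1*, higher in cKO, and *Oas1a*, lower in cKO, where 2.96% and 3.01% of all genes tested did not overlap in those directions. *Gbp6* and *Irf7* were at 0 in all 6 libraries, and *Isg15* and *Ifit3* never exceeded 3 counts. *Irf1* was at 67.9 ± 84.9 CPM in cKO and 39.7 ± 17.4 CPM in controls, *Gbp2* at 3.41 ± 5.84 and 7.92 ± 7.86 CPM, and *Ifit1* at 6.55 ± 10.7 and 16.7 ± 17.4 CPM (SD, n = 3 each). *Oas1a* was at 0 in cKO against 4.0 ± 3.45 CPM, at least 29.4-fold lower by group mean, although 1 control library had a single count. Of the 97 tested pathway genes 0 were called by edgeR, with 7 higher and 6 lower at an unadjusted p under 0.05, whereas DESeq2 called 6 higher and 3 lower, and edgeR without a filter on low counts 3 higher. Without overlap, 3 were higher and 3 lower in cKO, shares close to the 2.96% and 3.01% of all genes.

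In NICD against E14.5 PLET1+ control TECs, the contrast that chose *Gbp6*, 0.266% of all genes were called higher and 0.418% lower. *Gbp6* was at 0 in all 5 NICD libraries against 4.0, 17.1 and 3.61 CPM in the 3 controls, of which control 2 held most. *Irf1* was at 114 ± 43.3 against 424 ± 136 CPM, a log2 difference of −1.87 (SE 0.54). *Ifit1* was at 2.79 ± 2.66 against 17.0 ± 5.08 CPM, a log2 difference of −2.89 (SE 1.52). These 3 were the genes of the 9 whose libraries did not overlap, all lower in NICD, where 6.52% of all genes tested did not overlap in that direction. The direction was not the same over the 9 genes: *Xaf1* (31.4 ± 15.3 against 22.9 ± 17.8 CPM) and *Isg15* (8.79 ± 7.36 against 4.09 ± 2.18 CPM) had higher means in NICD, with overlapping libraries. Mitochondrial genes took 9.60% to 12.8% of the counts in NICD libraries and 4.50% to 9.54% in these controls, without overlap, and their part in these differences was not tested.

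Pathway genes in NICD TECs, given as descriptions since this contrast chose *Gbp6*, were fitted lower for 58 and higher for 39 of the 97 tested, with a median log2 difference of −0.39 against 0.04 over all genes. The comparison shares its 3 control libraries with that of the stages. Of the 97 tested, *Iigp1* was called lower (74.2, 132, 167, 289.5 and 31.3 CPM against 899, 566 and 927 CPM in controls) and none was called higher, 14 were lower without overlap and 1, *Ifi35*, higher, where 6.52% and 5.22% of all genes tested did so. The number called depended on the setting, since no pathway gene was called without any 1 of the 3 controls, without NICD library 2 or 3, or in a fit of the 2 groups alone, while 6 were called lower and 1 higher with DESeq2, 8 lower without a filter and 12 lower with limma-voom. Among the lower ones, and named after their values were seen, were *Irgm1* (19.0 ± 11.8 against 211 ± 61.7 CPM), *Irgm2* (0.312 ± 0.427 against 21.8 ± 11.4 CPM), *Cxcl10* (283 ± 73.0 against 788 ± 132 CPM) and the inhibitor *Socs1* (0.974 ± 1.58 against 23.4 ± 8.0 CPM). The receptor gene *Ifngr1* (log2 difference 0.04, SE 0.35) and the inhibitor *Socs3* (0.04, SE 0.87) differed from controls by less than their standard errors. *Jak1* was higher by 0.59 (SE 0.24). Of all 6 receptor genes 4 were fitted lower and 2 higher, of the 12 kinase and factor genes 7 and 5, and of the 7 inhibitors 5 and 2. Without overlap, 2 kinase and factor genes and 2 inhibitors were lower, and 0 of these 3 roles were higher. The share of called genes that were higher in NICD went from 38.9% to 78.7% with scaling to housekeeping genes, which moved the median of all genes from 0.04 to 0.38 on the log2 scale.

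The genes whose levels followed *Xaf1*, *Gbp6* and *Irf1* most closely were found by Pearson's r of log2(normalized CPM + 1) over the 23 libraries, which share their stage and batch structure. For *Xaf1* these were *Cd74* (r = 0.92), *Ifitm3* (0.91) and *Tgtp2* (0.91), and for *Irf1* they were *Prss16* (0.92), *Icam1* (0.91) and *Psmb11* (0.91). For *Gbp6* they were *Tmem255a*, *Gmpr* and *Fmo5* (0.89, 0.89 and 0.88). After removal of the group means r fell to between 0.53 and 0.77 for these 9 pairs. Among the 9 interferon-response genes themselves, the 36 pairs had r from −0.02 to 0.83 (median 0.41) over all libraries, and from −0.60 to 0.69 (median 0.16) over the 12 E14.5 libraries of the *Rbpj* cross.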

How the data were processed

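Pools of 100 sorted TECs were amplified by Smart-seq2 and sequenced as 75-base read pairs. The deposited table holds whole-number counts of read pairs per gene. To make it, the authors trimmed reads with Trimmomatic (version 0.32), aligned them with STAR (version 2.5.1a) to GRCm38 and counted them with featureCounts (version 1.5.1 per the labels, 1.5.0-p3 per the file headers) over exons of GENCODE M12, unstranded and without reads that map to several places or overlap several genes. Of the 50123 gene identifiers, 98.4% could be paired with a symbol. The 9 genes and all lists were chosen with earlier results of these data known.

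Counts were analysed in R 4.3.3 with edgeR 4.0.16: a filter on low counts (19140 genes kept, among them all 9), TMM scaling, and one quasi-likelihood fit of the 23 libraries with a mean for each of the 7 groups and 2 batch terms, for the 2 labelled batches within E12.5 and the 2 within the E14.5 *Rbpj* cross. P-values were adjusted by Benjamini-Hochberg over all genes tested, with a threshold of 0.05. The comparison of stages in cKO TECs was added after the data were seen. Levels are TMM-scaled CPM, and a floor of 3 counts stands for a count of 0. No pair of libraries was identical. Libraries of a group are separate embryos or pools, and p-values measure the spread between them.

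Named were the 9 genes, all receptor genes, a fixed set of kinase, factor and inhibitor genes, ligand genes above 3 counts, the near copies, up to 6 pathway genes called per comparison and direction by smallest p, and for *Xaf1*, *Gbp6* and *Irf1* the 3 genes of highest r. One pathway gene is not reported here. Marker lists were TEC, medullary, haematopoietic, mesenchyme, endothelium, erythroid and parathyroid. Alternatives were RLE scaling, scaling to 3 housekeeping genes, no filter, a filter of 10 counts in 3 libraries and a mean of 50, no batch terms, a replicate block, the 2 groups compared alone, DESeq2 1.42.0, limma-voom (limma 3.58.1), each library left out and, added after the data were seen, the first batch alone. Replicate numbers were taken to pair samples where every same-numbered pair of libraries deviated together from its group means with r over 0.1. This held for the 4 comparisons within the E14.5 *Rbpj* cross, whose lowest r was 0.26 to 0.40, and not for the others. Between cKO and control some other-numbered libraries had as high an r, so the rule does not establish pairs of cKO and control. The fit was tested on simulated data with 200 changed genes before use.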

Additional observations from a re-analysis of the deposited data

Results flagged for a closer look

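Among the 9 genes, 9 groups of at least 4 libraries were tested for a library that lies apart from the rest by Dixon's criterion, which chance meets in about 1 of 20 groups. All 9 are NICD groups, since the other groups have 3 libraries each. In 3 of them a single library stood apart, but where the others are at or near 0 any single detection meets the criterion, so that rate does not apply to these 3. *Irf7* was at 6.49 CPM (425 counts) in NICD library 2 and at 0 in the other 4. *Ifit3* was at 47.0 CPM (3076 counts) in the same library and at 1 to 3 counts in the others. *Oas1a* was at 0.883 CPM (64 counts) in NICD library 3 and at 0 elsewhere. NICD library 2 also had the highest *Isg15* of all 23 libraries (19.9 CPM) and the highest *Usp18* (35.9 CPM), whereas its *Irf1* (122 CPM), *Xaf1* (38.5 CPM) and *Gbp6* (0) lay within the range of the other NICD libraries. Its haematopoietic markers were within the range of all groups. The cause was not tested.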

How the results depend on the processing

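Without a filter on low counts, called genes numbered 10 (PLET1+ cKO against control), 15 (PLET1- cKO against control), 16 (PLET1- against PLET1+ in controls), 23 (the same in cKO), 519 (stage, controls), 393 (stage, cKO), 52 (E12.5 cKO against control) and 677 (NICD). With DESeq2 they numbered 100, 160, 153, 152, 1291, 1099, 318 and 1236 in the same order. With limma-voom 1 gene was called between PLET1- and PLET1+ controls, 2 in cKO, 448 between stages in controls, 0 at E12.5 and 998 in NICD. In a fit of the 2 groups compared alone, where fewer libraries set the spread, 1 and 2 genes were called between stages in controls and in cKO, 0 at E12.5 and 17 in NICD. In the first batch alone, with fewer libraries, 38 and 6 were called between stages and 0 at E12.5. Scaling to housekeeping genes gave 0 calls at E12.5, 413 in NICD and 79 between stages in cKO, and no batch terms gave 0 at E12.5 and 95 between stages in cKO. Leaving out single libraries gave 91 to 130 calls between stages in controls, 52 to 117 in cKO, 0 to 6 at E12.5 and 32 to 172 in NICD. Except where fewer libraries entered, the cause was not tested.

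With a replicate block, 0 genes were called in each of the 4 comparisons within the E14.5 cross, in which the numbers met the rule for pairing, so it changed no call there. Where the numbers did not meet that rule, the replicate block gave 140 calls between stages in controls, 89 in cKO, 2 at E12.5 and 79 in NICD. *Irf1* between stages then had an edgeR adjusted p of 0.0971 in controls and 0.180 in cKO, and *Isg15* of 0.0482 and 0.0173.

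Within E14.5, genes with a library at or under 3 counts in a comparison were given as levels and not as folds. Log2 differences of genes that passed no test turned direction as follows. Between PLET1+ cKO and control, *Irf1* was at −0.025 with the replicate block, and *Ifit1* at 0.50 without batch terms, 0.28 with the 2 groups alone, 0.45 with limma-voom and 1.16 in the first batch. Between PLET1- cKO and control, *Ifit1* was at 0.10 with the block and at 0.10 with limma-voom. Between stages in controls, *Ifit1* was at −0.073 with housekeeping scaling and −0.28 in the first batch, and *Oas1a* at −0.28 without batch terms, −0.91 with limma-voom and −0.36 in the first batch. Between PLET1- and PLET1+ controls, *Gbp6* was at 0.25 with limma-voom, *Irf1* at −0.11 in the first batch, *Isg15* at −0.016 with housekeeping scaling, −0.021 without batch terms, −0.050 with the 2 groups alone and −0.57 in the first batch, and *Ifit1* at −0.15 with the block. In cKO, the same difference was 0.25 for *Isg15* with housekeeping scaling and 0.34 for *Ifit1*, which was at 0.16 with the block. Leaving out single libraries gave −0.44 to 0.49 for *Irf1* and −0.56 to 1.12 for *Ifit1* (PLET1+ cKO against control), −0.19 to 0.76 and −1.11 to 1.70 (PLET1-), −1.07 to 1.48 for *Ifit1* and −0.51 to 3.68 for *Oas1a* (stage, controls), −1.29 to 0.62 for *Gbp6*, −0.066 to 0.48 for *Irf1*, −0.48 to 0.50 for *Isg15* and −1.60 to 1.47 for *Ifit1* (PLET1- against PLET1+ controls), and −0.060 to 1.12 for *Irf1*, −0.63 to 0.24 for *Isg15* and −0.42 to 0.47 for *Ifit1* (the same in cKO). The cause was not tested.

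Of the other 2 scalings, RLE and housekeeping genes, the latter moved the median of all genes by over 0.1 on the log2 scale, from 0.19 to 0.07 between stages in controls, from 0.18 to 0.39 in cKO, from 0.04 to 0.38 in NICD, from 0 to −0.36 at E12.5, from 0.02 to 0.15 between PLET1- cKO and control and from 0.02 to 0.20 between PLET1- and PLET1+ cKO. Depth limits the low genes: a count of 0 allows up to 3 counts, and with 3 libraries a group the spread of *Irf7*, *Ifit3* and *Oas1a* within a group spans their range between groups. Endothelial and erythroid markers summed to at most 27.5 and 5.94 CPM in any library, and medullary markers to between 9.28 and 247 CPM.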
